A study of Homo sapiens with 6 samples.

Results

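The genes described here were silent in control cells and detected in every library made after an antisense oligonucleotide. Genes were chosen by their deposited counts, with a count of 0 in each of the 3 control libraries (NC1, NC2 and NC3) and 24 or more in each of the 3 oligonucleotide libraries (ASO1, ASO2 and ASO3). The rule found 201 of 19655 genes. The labels name the cells as HCT116, an established line of human colon cancer, grown in the same medium in both groups. The ASO group was transfected with ASO-SNORA67, an oligonucleotide against the small nucleolar RNA SNORA67, which makes these cells a knockdown model, and the NC group carries the genotype label control. The labels do not say what the NC cells received, nor the dose, the harvest time or the oligonucleotide's sequence. Total RNA was extracted, and gene expression was read by RNA sequencing. Separate cultures are not named for the replicates, so p-values speak of the spread among these 6 libraries alone, and that spread may be technical. SNORA67 itself was not analysed here, so its level could not be checked.

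Most human genes are used in only some tissues. In a cell that does not use it, a gene is commonly held in closed chromatin, with methylated or factor-free regulatory DNA, and gives no or hardly any RNA. RNA can appear over such a gene when a factor acts on its own promoter, or when a polymerase that has passed the end of a neighbouring gene runs on into it, so that the position and the strand of the nearest active gene are of interest beside the gene's usual tissue.

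Column totals of the estimated counts were alike in both groups, at 50728524 to 53715905 in NC and 49136502 to 54905215 in ASO. Each NC library held 13934 to 13995 genes with any count, and each ASO library 15452 to 15665, so the ASO libraries detected more genes at similar totals. In all libraries 4 was the commonest count above 0. About 4 counts are therefore taken to stand for 1 fragment, and the minimum of 24 counts for about 6. Detection was set at 12 counts in a library, or 3 fragments. In NC this equals 0.229 CPM, counts per 1000000, on column totals without TMM scaling. Other levels are CPM after TMM scaling, with factors of 0.995 to 1.01 in NC. The limit covers counting error only. Of the epithelial markers of colon, EPCAM was at 4.37 ± 1.13 CPM, CDH1 at 1.06 ± 0.229 CPM and CDX2 at 0.311 ± 0.165 CPM in NC, and CEACAM5 was at 0 in all 3 NC libraries (SD, n = 3). KRT8 was at 1360 ± 94.3 CPM, KRT18 at 712 ± 55.8 CPM and the mesenchymal marker VIM at 1200 ± 82.2 CPM. Low or absent EPCAM, CDH1, CDX2 and CEACAM5 beside high VIM go against a label of colon epithelial cells, while high KRT8 and KRT18 do not. The label is used as given, and the identity of the cells was not checked further. In bulk RNA, a few cells with much RNA of a gene and many cells with little of it cannot be told apart.

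A set of windows shows the DNA in front of members that the values below turn on. Each is the 250 bases before the RefSeq start site (GRCh38.p14), 5′ to 3′ on the strand of the gene. Capitals mark matches on either strand to GGGNNTTTC (NF-kB, 9 bases), TGANTCA (AP-1), TGACGTCA (CRE) or the TATA box, with the letters TATAAA. GP5 (chr3:194399267-194399516, minus strand) is shown as the member with the highest level, and its window holds none of these letters. SPIB (chr19:50418688-50418937, plus strand) is shown for its even level and close neighbour, with a TATA box at -29 from the start site. HCLS1 (chr3:121660904-121661153, minus strand) is shown for its AP-1 match at -91, and FGF21 (chr19:48755274-48755523, plus strand) for its NF-kB match at -142.
GP5: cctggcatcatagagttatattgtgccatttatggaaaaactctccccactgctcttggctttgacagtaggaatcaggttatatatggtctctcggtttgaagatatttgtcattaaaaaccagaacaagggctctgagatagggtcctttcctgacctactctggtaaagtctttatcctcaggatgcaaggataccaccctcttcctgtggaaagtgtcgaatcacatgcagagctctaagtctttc
SPIB: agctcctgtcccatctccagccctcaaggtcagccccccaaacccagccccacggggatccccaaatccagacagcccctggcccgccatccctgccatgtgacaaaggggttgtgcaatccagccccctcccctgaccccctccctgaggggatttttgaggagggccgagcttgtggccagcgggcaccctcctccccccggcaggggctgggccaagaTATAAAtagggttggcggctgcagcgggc
HCLS1: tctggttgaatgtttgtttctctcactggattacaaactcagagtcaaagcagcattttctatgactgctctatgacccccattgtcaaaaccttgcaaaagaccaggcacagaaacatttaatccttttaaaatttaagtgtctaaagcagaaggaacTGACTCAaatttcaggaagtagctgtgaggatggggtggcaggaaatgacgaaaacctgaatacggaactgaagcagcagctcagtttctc
FGF21: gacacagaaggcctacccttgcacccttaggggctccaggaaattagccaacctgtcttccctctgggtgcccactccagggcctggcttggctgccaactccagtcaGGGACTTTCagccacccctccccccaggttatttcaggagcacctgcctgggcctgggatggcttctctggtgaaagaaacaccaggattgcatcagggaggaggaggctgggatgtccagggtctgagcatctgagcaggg
A match of letters is a description and not a site of binding.

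The counts that chose the members are given as a description, with no test. Every fold is a lower bound against the detection limit in NC. Mean levels in ASO ran from 0.585 to 40.4 CPM with a median of 1.56 CPM. At 1 CPM or more were 149 members, at 5 CPM or more 24, and at 10 CPM or more 7. The remaining 52 members (25.9%) lay under 1 CPM. Together the members made up 523, 509 and 561 CPM in ASO1, ASO2 and ASO3, so the whole set was a small and even share of each library. All 201 are annotated as protein coding in GENCODE 29.

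The highest member was GP5, glycoprotein V of the platelet receptor for von Willebrand factor (chromosome 3, 194394821 to 194399266, minus strand, 1 exon). Its counts in ASO1, ASO2 and ASO3 were 1824, 1636 and 2721. ASO3 was the highest, and even ASO2 lay far above the other members. The mean was 40.4 ± 12.2 CPM (SD, n = 3), at least 176-fold higher than in NC. GP5 alone gave 6.49%, 6.43% and 9.7% of the summed CPM of the set. Other genes of blood cells and of the immune system followed it, and this class held 26 members with a median of 1.88 CPM. SPIB, an ETS factor of B cells (chromosome 19, 50418938 to 50431314, plus strand, 6 exons), had 591, 551 and 514 counts. Its 3 libraries were the closest of all members, at a ratio of 1.07 between highest and lowest CPM, and the mean was 10.8 ± 0.424 CPM, at least 46.9-fold higher. CXCR5, the receptor that brings B cells to lymphoid follicles, had 563, 233 and 603 counts. ASO2 was well under the other libraries, and the mean was 9.07 ± 3.9 CPM, at least 39.5-fold higher. HCLS1, an actin-binding substrate of tyrosine kinases in blood cells, had 360, 443 and 319 counts, with ASO2 the highest (7.32 ± 1.35 CPM, at least 31.9-fold higher). LYL1, a basic helix-loop-helix factor of blood stem cells, had 460, 257 and 365 counts, with ASO2 the lowest (7.0 ± 1.73 CPM, at least 30.5-fold higher). Members of lower level included SPI1, the ETS factor of myeloid and B cells, at 3.89 ± 0.796 CPM, and HLA-DOA, a chain of an antigen-loading regulator in B cells, at 3.55 ± 0.567 CPM. NCR3, an activating receptor of natural killer cells, was at 3.55 ± 1.01 CPM. TBX21, the T-bet factor of type 1 helper T cells, was at 1.18 ± 0.515 CPM, under the median of the set. The class thus drew on genes of platelets, B cells, T cells, natural killer cells and myeloid cells, and on no single lineage.

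**Figure D1:**
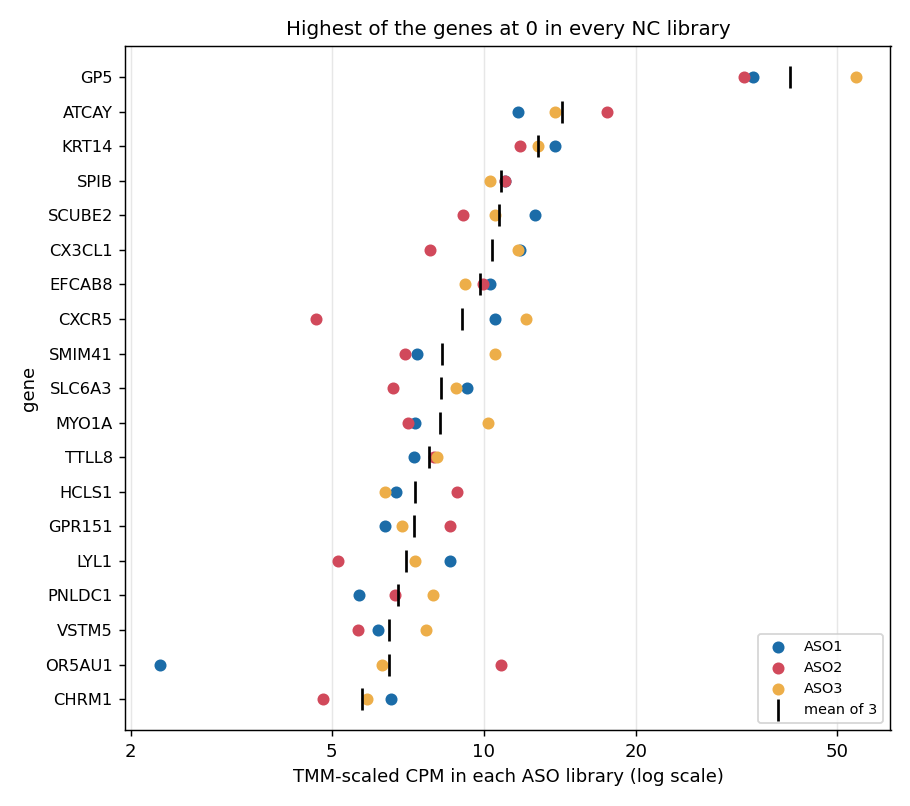
Members with the highest mean level, 1 row each, taken from the 20 highest. The horizontal axis is TMM-scaled CPM on a log scale, coloured points are the 3 ASO libraries and the black mark is their mean. GP5 stands apart at 40.4 CPM, and OR5AU1 and CXCR5 show the widest spread in the plot.

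The largest class with a named tissue was that of brain, nerve and sense organs, with 32 members and a median of 1.7 CPM. Silent genes were not counted by class, so the sizes of the classes show no preference for a tissue. ATCAY, which encodes the neuronal protein caytaxin (chromosome 19, 3879864 to 3928082), had 630, 876 and 689 counts. All 3 libraries were high, ASO2 most, and the mean was 14.3 ± 2.94 CPM, at least 62.5-fold higher than in NC. SLC6A3, the dopamine transporter, had 497, 331 and 440 counts (8.23 ± 1.41 CPM, at least 35.9-fold higher). In both genes every ASO library had 331 counts or more, where NC had 0. GPR151, an orphan receptor of habenular neurons, was at 7.28 ± 1.15 CPM, CHRM1, the M1 muscarinic receptor, at 5.75 ± 0.884 CPM, and GRM2, a metabotropic glutamate receptor, at 5.56 ± 0.274 CPM. VSTM5, a membrane protein with an immunoglobulin domain, was at 6.5 ± 1.07 CPM. Genes of the retina were among the members at lower levels. GNAT1, the rod transducin alpha subunit, was at 4.24 ± 0.646 CPM, RCVRN, the photoreceptor calcium sensor recoverin, at 1.99 ± 0.526 CPM, and AIPL1, a photoreceptor chaperone, at 0.65 ± 0.0624 CPM. OR5AU1, an olfactory receptor gene, differed most between libraries among the 20 highest, with 123, 542 and 315 counts. ASO2 was high and ASO1 low, and the mean was 6.48 ± 4.28 CPM.

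Genes of gut, liver, pancreas and kidney made up 19 members with a median of 1.99 CPM, some of them genes of the intestine and others of organs apart from it. MYO1A, a myosin of the intestinal brush border, had 392, 354 and 510 counts (8.2 ± 1.74 CPM, at least 35.7-fold higher). RBPJL, a factor of pancreatic acinar cells, was at 5.21 ± 0.404 CPM, and CTRB2 and CTRB1, the chymotrypsinogens of the same cells, were at 2.6 ± 0.387 CPM and 1.99 ± 0.37 CPM. PIGR, which carries IgA and IgM across epithelia, was at 4.46 ± 0.281 CPM. APOA1, the main protein of high-density lipoprotein, was at 2.74 ± 0.558 CPM, and NPHS1, nephrin of the kidney podocyte, at 1.5 ± 0.564 CPM. Skin, hair and lining epithelia gave 8 members with a median of 1.81 CPM. KRT14, the basal keratinocyte keratin (chromosome 17, 41582279 to 41586895), had 739, 588 and 639 counts. The 3 libraries lay close together, and the mean was 12.8 ± 0.998 CPM, at least 55.7-fold higher. The hair keratin-associated genes KRTAP5-1 and KRTAP5-2 were at 5.09 ± 1.02 CPM and 4.79 ± 0.69 CPM. KRT14, the KRTAP5 genes, CTRB1 with CTRB2, ORM1 with ORM2, the GOLGA6 genes, GAGE2A and IFNL2 have near-identical copies, and how the counting split reads between copies is not stated in the labels, so their values are uncertain.

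Secreted cytokines and hormones gave 9 members, all of them at 1.14 CPM or more, with a median of 1.81 CPM. CX3CL1, the membrane-tethered chemokine fractalkine, had 636, 391 and 583 counts, with ASO2 the lowest (10.4 ± 2.27 CPM, at least 45.5-fold higher). FGF21, a metabolic hormone released under stress, had 181, 116 and 198 counts (3.22 ± 0.831 CPM). CSF3, the granulocyte colony-stimulating factor, had 137, 186 and 164 counts (3.18 ± 0.591 CPM). CX3CL1 thus lay well above the rest of its class. INHBA, the activin A subunit, was at 1.99 ± 0.452 CPM. IL31, IL20, OSM, IFNL2 and IL17F, which encode secreted signals of immune cells, lay between 1.14 CPM (IL17F) and 1.81 CPM (IL31).

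Genes of testis and germ cells made up 18 members, and their median of 0.944 CPM was the lowest of the classes. TTLL8, a tubulin glycylase, had 391, 399 and 403 counts (7.78 ± 0.43 CPM, at least 33.9-fold higher). PNLDC1, which trims piRNAs, had 304, 333 and 397 counts (6.76 ± 1.14 CPM, at least 29.4-fold higher). Both were even across the libraries, and the class reached down to GAGE2A, a cancer-testis antigen gene, at 0.601 ± 0.0686 CPM. Muscle, heart, bone and cartilage gave 10 members (median 1.12 CPM), of which NMRK2, a nicotinamide riboside kinase of muscle, was the highest at 4.17 ± 0.77 CPM. Embryonic patterning and stem cells gave 6 (median 0.985 CPM). Among them were ZSCAN10, a zinc finger factor of pluripotent cells, at 3.28 ± 0.164 CPM, SHH, the morphogen sonic hedgehog, at 1.56 ± 0.146 CPM, and LIN28A, an RNA-binding protein of stem cells, at 0.595 ± 0.131 CPM. The other 73 members have no single tissue that could be named with certainty. They reached 10.7 ± 1.73 CPM in SCUBE2, a secreted protein that helps release hedgehog ligands (674, 455 and 525 counts, at least 46.7-fold higher). EFCAB8 and SMIM41, named here without a role, were at 9.83 ± 0.591 CPM and 8.28 ± 1.92 CPM. Places of normal expression were assigned by hand from general knowledge, after the members were known.

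**Figure D2:**
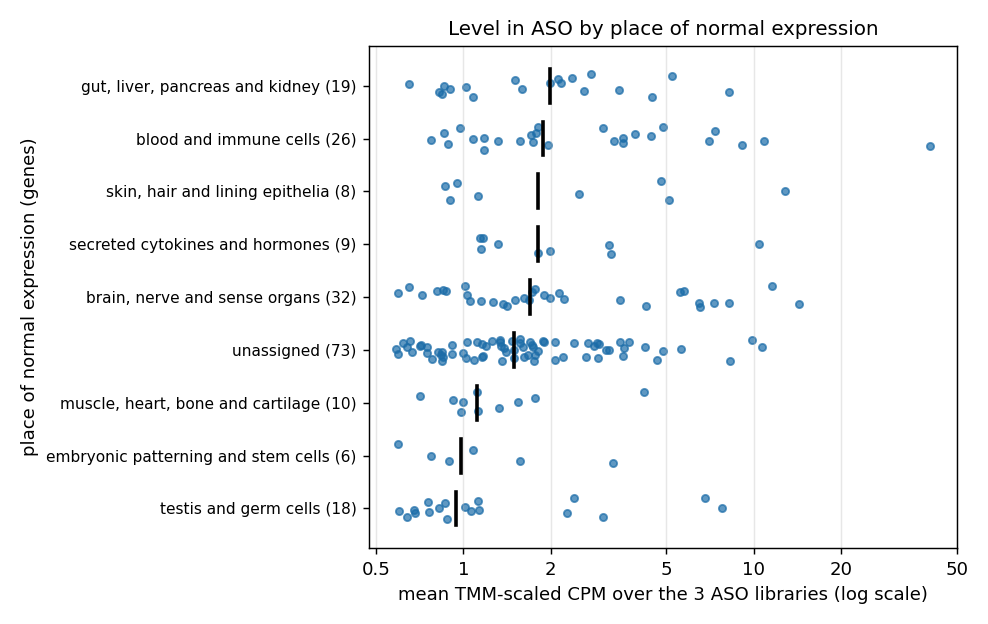
Mean level of each of the 201 members in ASO, by place of normal expression. The horizontal axis is TMM-scaled CPM on a log scale, points are genes, black marks are class medians, and numbers in brackets are members. Class medians run from 0.944 CPM (testis and germ cells) to 1.99 CPM (gut, liver, pancreas and kidney), and the classes overlap throughout.

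Members differed in how evenly the 3 ASO libraries carried them. The median ratio of the highest to the lowest library was 1.57, 90 members stayed within 1.5-fold, and 9 differed by over 3-fold. Besides SPIB, the closest were TNFRSF4, the OX40 receptor of T cells, with 100, 98 and 101 counts and RCSD1, an actin-capping regulator, with 79, 68 and 68 counts. The widest were OVCH1 (40, 139 and 28 counts, ratio 4.97), OR5AU1 (ratio 4.73) and GPR25, an orphan receptor (146, 59 and 40 counts, ratio 3.4). OVCH1 and OR5AU1 were high in ASO2, and GPR25 in ASO1. No library carried the set, since the highest value fell in ASO1 for 66 members, in ASO2 for 59 and in ASO3 for 76. The minimum of 24 counts cut through a continuum. Just inside it were AIF1, SSTR3, LRRC10, GUCA2A and PKP1, each with 24 counts in its lowest library. Just outside were APOL5, A2ML1, EPHA10, NSG1 and KRT6B, each with 23. Of the 4923 genes at 0 in every NC library, 697 had some count in every ASO library, 2821 were at 0 in all 6 libraries, and the 201 members were 4.08%. The other 4722 silent genes summed to 252, 277 and 269 CPM in ASO1, ASO2 and ASO3. In the opposite direction, with 0 in every ASO library and 24 or more in every NC library, there was 1 gene, ENSG00000285404, with 48, 43 and 56 counts in NC.

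Divided by the length of the annotated exons, members stayed low beside genes in general. Their median level was 0.663 CPM per kb, with a range of 0.0503 (KCNJ6) to 11.4 (GP5). The 13044 genes with 24 counts or more in every ASO library had a median of 6.47 CPM per kb, and 4 members lay above it. These were GP5, CFAP141 at 8.93 CPM per kb, VHLL, an intronless relative of VHL, at 8.3 and KRT14 at 7.68.

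Families of genes were counted next, each a list matched by the first letters or the whole of the symbol. The lists miss members of like function whose symbols do not match, so a count speaks of the list and not of all genes of that kind. Over all genes tested, 26.8% rose and 19.1% fell in ASO at an adjusted p under 0.05 (edgeR's quasi-likelihood test, Benjamini-Hochberg), with a median log2 fold change of 0.01. Among genes at 1 CPM or more in NC, 20.6% rose and 22.7% fell, so the share that rose depends on the level in NC. Lists were not compared with genes of like level, so a share above 26.8% cannot be read as a trait of the family. Of all genes at 0 in every NC library, 4.08% were members, and no list was tested against this share. Of 217 symbols on the list of cytokines, chemokines and growth factors, 104 were silent in NC, and 7 of those (6.73%) were members. CX3CL1 and INHBA are not on this list. Among the 98 tested list genes that were not silent, 54 rose, 7 fell and 37 did not pass, with a median log2 fold change of 1.48. Solute carriers gave 8 members of 105 silent genes (7.62%), led by SLC6A3, and in the rest 85 rose and 39 fell of 262 tested. Ion channels gave 6 of 106 (5.66%), among them CLCN1, the chloride channel of muscle, at 1.54 ± 0.57 CPM and KCNA7, a potassium channel, at 1.11 ± 0.663 CPM. Of the other ion channels 50 rose and 9 fell of 129. Zinc finger genes gave 7 of 135 (5.19%), with ZSCAN10 and ZNF556 the highest, and 152 of the other 438 rose while 23 fell. The list of immune receptors gave 5 of 123 (4.07%), CD226, FCGRT, NLRP10, SIGLEC11 and CLEC3B, and it leaves out NCR3 and TNFRSF4. CLEC3B, the plasma protein tetranectin, matches by its first letters alone. Of the list's other genes, 28 of 75 rose while 11 fell. Keratins and keratin-associated genes gave 5 of 126 (3.97%), and 11 of 20 others rose with 0 lower. The list of proteases and inhibitors gave 2 of 83 (2.41%), SERPINE3 and ADAM20, and it leaves out HTRA4, CTRB1, CTRB2, OVCH1 and DPEP1. Of its other genes, 29 of 76 rose while 6 fell. G protein-coupled receptors are the largest list, with 469 silent genes, and 9 symbols matched it (1.92%), among them CXCR5, GPR151, OR5AU1 and CHRM1. HTRA4, a serine protease, matches the receptor list by its first letters alone. Of the other receptors 48 rose and 9 fell of 108. The list of homeobox and lineage factors gave 1 of 97 (1.03%), TBX21, and 62 of its 154 others rose while 12 fell. Lineage factors among the members that it leaves out include SPIB, LYL1, SPI1, ONECUT3, TBR1 and DMRTA2. The list of cancer-testis families gave 1 of 166 (0.602%), GAGE2A, and 14 of 41 others rose while 6 fell. Histones gave 0 of 12, with 53 of 74 others higher and 2 lower. The list of non-coding genes had 3 silent genes, and 0 of them were members.

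Summed markers of most other cell types were higher in the ASO libraries than in the NC libraries. The 10 mesenchymal markers summed to 2860 to 3180 CPM in NC against 3610 to 4250 CPM in ASO, but they did not move together. COL5A1 was at 612 ± 33.3 and 1280 ± 125 CPM, COL1A1 at 160 and 374 CPM, FN1 at 226 and 413 CPM. VIM was at 1200 and 1290 CPM. Lower in ASO were SPARC (685 and 546 CPM), PDGFRB (101 and 41 CPM), LUM (4.53 and 1.87 CPM) and DCN (3.31 and 1.73 CPM). COL1A2 (0.049 and 0 CPM) and COL3A1 (0.582 and 2.29 CPM) were low in both groups. The 12 colon markers summed to 1920 to 2210 CPM and 1670 to 2190 CPM. KRT8 (1360 and 1170 CPM) and KRT18 (712 and 738 CPM) made up nearly all of these sums. LGALS4 (0.0066 and 18 CPM), VIL1 (0.0674 and 8.88 ± 6.97 CPM) and KRT19 (0.0503 and 1.66 CPM) were close to absent in NC and detected in ASO. EPCAM (4.37 and 2.93 CPM), CDX2 (0.311 and 0.191 CPM) and CLDN3 (0.196 and 0.0934 CPM) had lower means in ASO. The other lists were lower. The summed CPM of 14 leukocyte markers ran from 3.19 to 4.35 across the NC libraries and from 20.9 to 25.4 across the ASO libraries, with the defining markers PTPRC and CD3E at 0 in all 6 libraries. Most of that sum came from ITGAM (0.394 CPM in NC and 8.11 CPM in ASO) and CD79A (0.109 and 7.04 CPM). The 12 measured keratinocyte markers summed to 33.1 to 34.8 CPM in the NC libraries against 78.8 to 93.9 CPM in the ASO libraries, with IVL, SPRR1A, SPRR1B and SPRR3 at 0. KRT16 (4.03 and 40.3 CPM) and the member KRT14 made up most of that difference. The 7 glial markers summed to 15.6 to 18.3 CPM and 43.6 to 46.7 CPM, with AQP4 and OLIG1 at 0. Nearly all of it was MBP (16.4 and 44 CPM), while MOG was at 0.453 and 0.464 CPM. The 14 neuronal markers summed to 33.5 to 37.3 CPM and 37.7 to 45.3 CPM, with STMN2, GAP43, NEFM and ELAVL4 at 0. The 8 liver markers summed to 0.453 to 2.0 CPM and 8.28 to 9.01 CPM, with ALB and TTR at 0. The 12 germ cell markers summed to 0 to 0.184 CPM and 1.16 to 2.74 CPM, with DDX4, DAZL, MAGEA4, TNP1 and BRDT at 0. The 11 erythroid and megakaryocyte markers, the class nearest to GP5, summed to 3.13 to 3.8 CPM and 8.62 to 10.1 CPM, with GP9, HBG1 and HBG2 among those at 0. GP9 and GP1BA are partners of GP5 in the platelet receptor, and GP1BA had 2.63 ± 0.128 CPM in the NC libraries against 5.14 ± 0.802 CPM in the ASO libraries. The 7 endothelial markers summed to 10.4 to 11 CPM and 16.4 to 21.6 CPM, with KDR and EMCN at 0. The 11 muscle markers summed to 11.8 to 12.8 CPM and 18.1 to 20.1 CPM, with MYL1 and TNNT3 at 0. The 7 placental markers summed to 0.264 to 0.937 CPM and 1.54 to 3.15 CPM, and the 7 markers of eye and ear to 0.147 to 0.535 CPM and 2.52 to 3.2 CPM, with RPE65 at 0. Of all the markers, APOA1 and KRT14 are members. The part of other cell types in the levels of the members was not tested.

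Members lay near active genes more often than other silent genes did. An active gene is one at a mean of 1 CPM or more in NC, and position comes from the deposited coordinates (hg38), with the strand from GENCODE 29. The median distance to the nearest active gene on either strand was 10489 bases for members, 84050 bases for the other silent genes with a strand (4684 genes) and 10232 bases for all other genes of the table (19345 genes). An active gene that ended within 10 kb upstream on the same strand was found for 45 of 201 members, or 22.4% (95% Wilson interval 17.2 to 28.6). The share was 3.01% (2.56 to 3.54) in other silent genes and 13.3% (12.8 to 13.8) in all other genes. An active gene within 10 kb downstream on the opposite strand, pointing towards the member, was found for 19.4% of members, 4.72% of other silent genes and 14.7% of all others. For an active gene downstream on the same strand the shares were 9.95%, 3.93% and 12.9%. For one upstream on the opposite strand, as in a shared promoter region, they were 3.48%, 2.28% and 12%. In members the largest shares were thus those in which the end of the active gene, and not its start, faces the member. The lead of the upstream same-strand share over the downstream opposite-strand share did not hold at shorter distances. Within 5 kb both were 13.4% of members, against 1.52% and 2.6% of other silent genes. Within 1 kb they were 2.49% and 4.48% of members, against 0.32% and 0.726% of other silent genes. Of the 93 members with an active gene within 10 kb in any orientation, 48.4% had one upstream on the same strand, against 24.6% of 573 other silent genes and 33.5% of 7686 other genes. For one upstream on the opposite strand the shares were 7.53%, 18.7% and 30.2%, and for one downstream on the same strand 21.5%, 32.1% and 32.4%. For one downstream on the opposite strand they were close to each other, at 41.9%, 38.6% and 37.1%. Neighbouring genes share regions, so the genes are not independent, and the intervals treat them as if they were. No test of these shares was made.

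**Figure D3:**
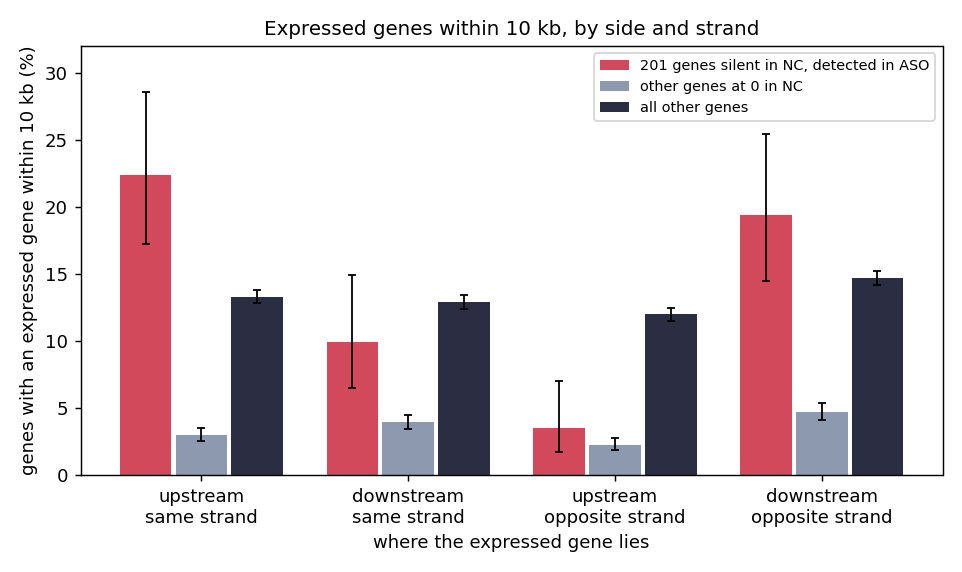
Share of genes with an active gene (1 CPM or more in NC) within 10 kb, by side and strand, for the 201 members, the other genes at 0 in NC and all other genes of the table. Bars are percentages and error bars are 95% Wilson intervals. The upstream same-strand bar is 22.4% for members and 3.01% for other silent genes.

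The upstream genes of members were also well expressed. Where one ended within 10 kb, its median level in NC was 55.9 CPM for members, 16.8 CPM for other silent genes and 39.3 CPM for all others. The 45 members with such a gene had a median of 1.99 CPM and 0.94 CPM per kb in ASO, and the 156 without one 1.36 CPM and 0.55 CPM per kb. The ranges from lower to upper quartile overlapped, at 1.36 to 4.22 CPM and 0.909 to 2.53 CPM, and the difference was not tested. By place of normal expression, 6 of 26 blood and immune members had an upstream gene within 10 kb, 7 of 32 of brain, nerve and sense organs, and 5 of 18 of testis. Of the 9 cytokines and hormones and the 6 embryonic genes, 0 had one. ATCAY, CX3CL1 and FGF21 were among the members far from such a gene, with the nearest same-strand active gene upstream at 111289, 118842 and 124807 bases. On either strand and side, their nearest active genes were DAPK3, CIAPIN1 and FUT1, at 30371, 43143 and 2883 bases, so FGF21 was not far from every active gene.

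The level of the upstream gene was then compared between ASO and NC, since the rule did not use it. Among genes at 1 CPM or more in NC, 20.6% rose and 22.7% fell. Of the 186 different genes that were the nearest active same-strand gene upstream of a member, 60 rose (32.3%), 31 fell (16.7%) and 95 did not pass, with a median log2 fold change of 0.08 against -0.09 over all active genes. Of the 45 that ended within 10 kb, 15 rose, 6 fell and 24 did not pass, with a median of 0.05. The share that rose was above the background share in number, a difference that was not tested, and about as many upstream genes did not pass as passed. The 6 closest show this range. KCTD11, an adaptor of a ubiquitin ligase 179 bases before TMEM95, which encodes a sperm membrane protein, had 7.68, 7.97 and 7.67 CPM in the NC libraries against 38, 33.1 and 33.8 CPM in the ASO libraries. The groups did not overlap, and the log2 fold change was 2.17 (edgeR adjusted p = 1.37e-05). PTPRH, a receptor phosphatase 958 bases before SYT5, a synaptotagmin, rose from 1.86 ± 0.54 to 15.5 ± 2.34 CPM (log2 fold change 3.06, edgeR adjusted p = 8.54e-05). TRMT1, a tRNA methyltransferase 1741 bases before LYL1, rose from 121 ± 10.4 to 167 ± 14.8 CPM (0.46 on the log2 scale, edgeR adjusted p = 0.00851). The others did not pass. POLD1, the catalytic subunit of DNA polymerase delta 920 bases before SPIB, had 130, 105 and 147 CPM in the NC libraries against 134, 114 and 122 CPM in the ASO libraries, so the groups overlapped (log2 fold change -0.05, edgeR adjusted p = 0.781). PLEKHA2, 316 bases before HTRA4, was at 109 ± 8.32 and 104 ± 11.2 CPM, and C1orf43, 387 bases before CFAP141, at 251 ± 9.91 and 255 ± 9.5 CPM. Nearer active genes, not upstream on the same strand, lay 145 bases from HTRA4 (TM2D2) and 237 bases from LYL1 (NFIX).

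For the highest member, the gene behind it was ATP13A3, a cation transporter that ends 3408 bases before GP5. ATP13A3 had 47.4, 50.1 and 42.2 CPM in the NC libraries against 66.7, 131 and 86.3 CPM in the ASO libraries. All ASO libraries lay above all NC libraries, and the log2 fold change was 1.02 (edgeR adjusted p = 0.00849). ATP13A3 was highest in ASO2, where GP5 was lowest at 32.7 CPM, close to its 34.0 CPM in ASO1. No relation across the ASO libraries was tested for any pair. HCLS1 lies 2296 bases behind GOLGB1, a large Golgi protein gene, which had 70.1, 88.2 and 67.2 CPM in the NC libraries against 25, 48.9 and 27.3 CPM in the ASO libraries. GOLGB1 fell (log2 fold change -1.16, edgeR adjusted p = 0.00845), and both GOLGB1 and HCLS1 were highest in ASO2 among the ASO libraries. PSMD14, a proteasome subunit 4580 bases before TBR1, a factor of cortical neurons, also fell, from 188 ± 22.4 to 91.4 ± 18.2 CPM (log2 fold change -1.04, edgeR adjusted p = 0.00139). The largest rise within 10 kb was that of GAS7, a gene of the neuronal cytoskeleton 5335 bases before RCVRN, from 1.04 ± 0.573 to 16.6 ± 0.693 CPM (log2 fold change 3.99, edgeR adjusted p = 0.000197). CCL5, a chemokine 2600 bases before HEATR9, rose from 1.49 ± 0.328 to 9.52 ± 1.35 CPM (2.68, edgeR adjusted p = 0.000117). GP5, HCLS1, TBR1, RCVRN and HEATR9 with their upstream genes were picked for this description after their values were seen. Members were thus found behind genes that rose, genes that fell and genes that did not pass the test. The part of transcription from these upstream genes in the counts of members was not tested, since the files hold no coverage between genes.

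**Figure D4:**
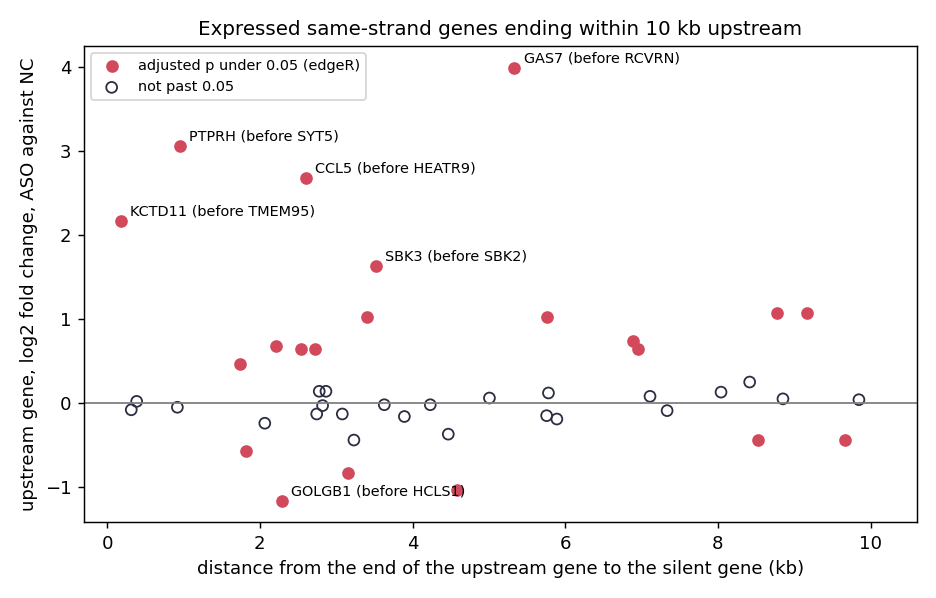
Log2 fold change (ASO against NC) of the 45 active same-strand genes that end within 10 kb upstream of a member, by distance in kb. Filled points passed an adjusted p of 0.05 in edgeR and open points did not. Of the 45 genes, 15 rose, 6 fell and 24 did not pass, and no relation with distance was tested.

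Overlap with active genes was uncommon. GPR21, an orphan receptor, lies within RABGAP1 on the same strand and was the only such member (0.498%, against 2.37% of other silent genes). RABGAP1 fell (log2 fold change -0.44, edgeR adjusted p = 0.0311), a call that was lost without any one of NC1, NC2, NC3, ASO1 or ASO3 (edgeR adjusted p 0.0508 to 0.112). Overlap with an active gene on the opposite strand was found for 8 members (3.98%, against 3.8% of other silent genes and 14.8% of all others), and 0 of the 8 lay wholly inside it. They were CP with HPS3, CXCR5 with BCL9L, DNAH3 with LDAF1, HEATR9 with TAF15, PKD1L3 with IST1, RGS11 with FAM234A, SERPINE3 with INTS6 and SYN3 with TIMP3. The labels do not state whether counting used strand, so reads of these pairs could not be told apart. BCL9L, a beta-catenin cofactor, rose from 131 ± 10.0 to 263 ± 26.6 CPM (log2 fold change 1.0, edgeR adjusted p = 0.000235). Among the members themselves, LRRC43 and IL31 overlap on opposite strands, and RRH and LRIT3 on the same strand. Head-to-head starts within 1 kb of an active gene were found for 2 members, TRPM5 with KCNQ1 and WDR87 with SIPA1L3 (0.995%, against 0.854% of other silent genes and 7.65% of all others).

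Several members were neighbours of each other. In 17 groups, 38 members lay within 100 kb of the next. Some groups were tandem families, such as KRTAP5-1, KRTAP5-2 and KRTAP5-4, CTRB1 and CTRB2, ORM1 and ORM2, ACTL7A and ACTL7B, MUC3A and MUC17, GIMAP7 and GIMAP8, and KRT13 and KRT14. Others joined genes of different kinds, such as IL20, PIGR and FCAMR on chromosome 1, NCR3 and AIF1 on chromosome 6, and ZFR2, ATCAY and NMRK2 on chromosome 19. By chromosome, 27 members (13.4%) lay on chromosome 19, which holds 6.48% of other silent genes and 7.28% of the table. Chromosome 17 held 20 (9.95%, against 4.11% and 5.89%) and chromosome 16 held 13 (6.47%, against 2.33% and 4.28%), and chromosome X held 5 (2.49%, against 7.75% and 4.32%). Chromosomes 16, 17 and 19 are rich in genes as a whole. In structure, members had a median span of 15122 bases, 2819 exonic bases and 6 exons, against 15132, 2277 and 5 in other silent genes. Single-exon genes were 12 members (5.97%), GP5 among them, against 12.8% of other silent genes.

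RefSeq held a promoter window of 250 bases before to 50 after the start for 134 members. A match to GGGNNTTTC on either strand was found in 3 of them, FGF21, FBXW12 and RRH, or 2.24% (95% Wilson interval 0.764 to 6.38), against 5.07% of 3550 other silent genes and 4.73% of all 27305 genes of the table of promoters. With members chosen without ASO3 the share was 5.06%, and with a minimum of 12 counts 5.26%, so it was over 2 times higher and level with other silent genes. TGANTCA was in 9.7% of member windows, 8.14% of other silent and 7.76% of all, and TGACGTCA in 0.746%, 1.18% and 1.98%. TATAAA was in 14.2%, 19.2% and 12%, the GC box GGGCGG in 41.0%, 33.5% and 44.6%, and the E-box CACGTG in 2.99%, 6.0% and 7.43%. CCATATTAG, a motif of the SRF type, was in 0 member windows and in 0.0952% of all. The 10-base NF-kB consensus, which allows more letters and can overlap GGGNNTTTC, was in 11.2%, 10.1% and 10.8%. None of these shares was tested against another. Windows rich in CpG (observed over expected of 0.6 or more, GC of 50% or more) were 32.8% of member windows, 30.9% of other silent genes and 82.1% of active genes. In CpG content the members' windows were nearer to those of other silent genes than to those of active genes.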

How the data were processed

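RNA of 6 libraries (3 NC, 3 ASO) was measured. The authors deposited estimated counts per gene for 19655 genes with hg38 coordinates, not scaled to depth. Tools named per the submitters' processing notes are FastQC, STAR, StringTie and DESeq2, without versions, and the build is hg38. The annotation release and the strand setting are not given in the sources used. All deposited values were whole. Totals were 49136502 to 54905215.

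Members and lists were chosen with earlier results of these data known, and from the values in both groups, so members were described without tests. Counts of all genes were compared in R 4.3.3 with edgeR 4.0.16 (filterByExpr, minimum count 10, minimum total 15, leaving 14062 genes; TMM; robust quasi-likelihood test; Benjamini-Hochberg over all genes tested; threshold 0.05). On simulated counts the fit was tested first. Levels are TMM-scaled CPM, except for the detection limit in NC. Strand and exons came from GENCODE 29, which matched 19525 genes by symbol or identifier; 21 more took a strand from RefSeq, and 109 had none. Of the matched genes, 4907 had the deposited span exactly. Promoters came from RefSeq (GRCh38.p14), the first window listed per gene.

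Named members were the 20 highest, up to 4 per list, 5 on each side of the minimum count, the 3 widest and 3 closest across ASO libraries, the 6 closest behind an active gene, and those inside an active gene on the opposite strand. Other members named by tissue, cluster or neighbour were picked after their values were seen. Some genes that the rule takes are not reported here. Alternatives were other minimum counts, distances and levels for an active gene, another motif, RLE scaling, no filter, DESeq2 1.42.0, leaving out each library and a replicate block.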

Additional observations from a re-analysis of the deposited data

How the results depend on the processing

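The number of members followed the minimum count, at 333 for 12 counts and 114 for 48 counts. It was 300 with up to 4 counts allowed in NC, and 190 at 0.5 CPM or more. Leaving out 1 library gave 230 to 262 genes, which included all 201 members each time, as one condition fewer was asked. The share of members with an active same-strand gene upstream was 13.4% within 5 kb and 56.7% within 50 kb, where other silent genes had 1.52% and 13.1%, and 21.4% to 25.6% within 10 kb without 1 library. The NF-kB share was 11.2% with the 10-base consensus and 1.96% to 5.06% without 1 library, and 5.26% at a minimum of 12 counts. Genes higher in ASO numbered 3128 to 3927 without 1 library, and genes lower 1755 to 3199. The lower count moved by over 1.5 times without NC replicate 1 (1755) and without ASO replicate 3 (1764), where fewer libraries were compared. Upstream genes that rose numbered 53 to 61 and those that fell 24 to 36 without 1 library.

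With the replicate number as a block (replicate block), 3924 genes were higher and 3494 lower, and 64 upstream genes rose and 38 fell. Libraries of the same number correlated in their deviations from the group means at 0.109, 0.384 and 0.0803, and number 3 did not match its own number best, so the numbers were not taken as pairs. RLE scaling, no filter and DESeq2 kept every count of calls within 1.5 times. An added check, chosen after the data were seen, repeated these settings for the named upstream and overlapping genes. The calls of KCTD11, PTPRH, TRMT1, ATP13A3, GOLGB1, PSMD14, GAS7, CCL5 and BCL9L held in each setting, and that of RABGAP1 was lost when most single libraries were left out.

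At 24 counts a member rests on about 6 fragments, so the levels near the minimum have wide counting error. Zero counts in NC show only that a gene was under about 3 fragments per library.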
